A study of Mus musculus with 36 samples.

Results

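The 39 Hox genes of the mouse were followed in murine embryonic fibroblasts (MEFs) that carried normal, mutated or no glucocorticoid receptor (GR, encoded by Nr3c1). They were taken by symbol, as every gene named Hox with a cluster letter from a to d and a paralog number, and made up 39 of the 55487 genes in the count table. Of these, 37 passed the filter on low counts that left 15489 genes for testing, and Hoxb1 and Hoxb13 did not. RNA-seq was done on 36 libraries, 3 in each of 12 groups. The primary MEFs came from E13.5 embryos of heterozygous parents, freed of the head and organs, and received either vehicle or dexamethasone (Dex), a synthetic GR ligand, at 1 μM for 5 h. The embryos were homozygous for the normal receptor (GRwt/wt, wild type), for a point mutation in the DNA-binding domain at the dimer interface (GRD/D), for a point mutation in the ligand-binding domain (GRL/L), for both mutations (GRD+L/D+L) or for a knockout allele (GRko/ko). Wild type, GRD/D, GRD+L/D+L and GRko/ko were in run 1, and GRL/L was in run 2 beside its own wild type of 3 vehicle and 3 Dex libraries. The labels give the strain FVB/NJ to every library, whereas the methods of the study describe the knockout colony on another inbred background, so that genotype and strain cannot be told apart for GRko/ko. MEFs are a mixture of cells from the trunk and limbs, and in such bulk samples fewer cells from a part of the body and less RNA per cell cannot be told apart.

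Hox genes encode homeodomain transcription factors that give cells along the body axis and in the limbs their positional identity. Within a cluster the order of the genes matches the order of their expression along the body: genes with low paralog numbers are active from the hindbrain and neck backwards, and genes with high paralog numbers only towards the tail and the tips of the limbs. Genes with the same number in different clusters are paralogs and have overlapping roles. Polycomb proteins keep silent members repressed and Trithorax proteins keep active members on, and fibroblasts in culture are known to retain the Hox pattern of the site they were taken from.

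In GRCm38 (mm10), the build of the files, the Hoxa cluster of 11 genes lies on the minus strand of chromosome 6 from 52155590 to 52260880. The Hoxb cluster of 10 genes lies on the plus strand of chromosome 11 from 96194316 to 96368256. The Hoxc cluster of 9 genes lies on the plus strand of chromosome 15 from 102921103 to 103036852, and the Hoxd cluster of 9 genes on the plus strand of chromosome 2 from 74668310 to 74765142. Exons of 16 of the 39 genes overlap those of another annotated gene, antisense RNAs among them, and whether reads were counted by strand is not given in the sources used here. The share of exon bases free of overlap is lowest for Hoxd3 (37.2%), Hoxb3 (47.1%) and Hoxd4 (47.7%), so their counts are the most uncertain.

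Promoter sequences, from 250 bases before to 50 after the start of transcription, were taken from RefSeq for GRCm38.p6, in which 22 of the 39 genes had an entry. They are shown for 4 genes: Hoxa9, which fell with Dex and was low in GRko/ko, Hoxb8, which fell with Dex and was lower in run 2, Hoxd1, which was near silent in run 1, and Hoxd13, which differed in GRD/D and in GRL/L. Capitals mark the GR half-site letters AGAACA or TGTTCT and the homeodomain core letters TAAT or ATTA; Hoxd1 and Hoxd13 hold neither.
Hoxa9 (chr6:52227321-52227620, minus strand): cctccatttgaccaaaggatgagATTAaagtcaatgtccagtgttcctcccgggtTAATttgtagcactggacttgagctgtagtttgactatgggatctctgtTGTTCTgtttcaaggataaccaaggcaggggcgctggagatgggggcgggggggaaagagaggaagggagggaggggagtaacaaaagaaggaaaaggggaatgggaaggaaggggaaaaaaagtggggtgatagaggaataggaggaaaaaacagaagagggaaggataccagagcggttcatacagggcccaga
Hoxb8 (chr11:96281655-96281954, plus strand): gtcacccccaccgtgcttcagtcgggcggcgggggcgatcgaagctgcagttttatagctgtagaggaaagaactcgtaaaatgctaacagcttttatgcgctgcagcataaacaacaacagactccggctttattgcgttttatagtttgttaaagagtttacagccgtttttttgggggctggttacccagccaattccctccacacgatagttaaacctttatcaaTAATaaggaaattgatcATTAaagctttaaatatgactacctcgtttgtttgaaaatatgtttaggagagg
Hoxd1 (chr2:74762730-74763029, plus strand): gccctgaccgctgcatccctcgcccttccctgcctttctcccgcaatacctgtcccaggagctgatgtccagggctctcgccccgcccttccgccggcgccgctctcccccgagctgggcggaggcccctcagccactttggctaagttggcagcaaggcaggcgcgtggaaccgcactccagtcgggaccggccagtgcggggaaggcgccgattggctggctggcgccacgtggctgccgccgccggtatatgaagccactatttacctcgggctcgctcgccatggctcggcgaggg
Hoxd13 (chr2:74667975-74668274, plus strand): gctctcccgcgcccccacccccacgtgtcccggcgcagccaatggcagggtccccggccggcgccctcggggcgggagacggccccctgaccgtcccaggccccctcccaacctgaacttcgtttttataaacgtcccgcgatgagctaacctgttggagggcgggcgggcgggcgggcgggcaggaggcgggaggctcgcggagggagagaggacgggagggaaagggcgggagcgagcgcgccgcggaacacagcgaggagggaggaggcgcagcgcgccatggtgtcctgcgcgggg
The half-site was in 2 of the 24 Hox promoters in the table (those of Hoxa9 and Hoxa11), against 19.0% of all 32851 promoters. The homeodomain core was in 19 of the 24, against 58.0% of all promoters. The full GR site (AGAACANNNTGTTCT) was in none of the 24 and in 0.00913% of all promoters. The median number of CG dinucleotides was 14.5 in Hox promoters and 7.0 in all promoters, a mark of the CpG-rich start sites that these clusters are known for. A match describes the letters in this window and not a bound site.

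The libraries held between 15280166 and 28662608 counts, of which 4994 to 12728 (0.0305% to 0.0536%) fell on Hox genes. The knockout label was checked on Nr3c1, which stood at 15.85 to 17.96 CPM (counts scaled to a common library size after TMM) in vehicle-treated GRko/ko and at 67.11 to 74.23 CPM in wild type of the same run. Fibroblast markers were present throughout, with a sum over 10 genes of 21170 to 37270 CPM. Marker lists of other cells, and changes within the fibroblast list, are given with the comparisons they moved in.

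Hox levels with vehicle were led by genes of the trunk. As a mean over the 18 vehicle libraries, 33 of the 39 genes stood at or above 1 CPM and 16 at or above 10 CPM. Per kb of exon, the highest member was Hoxb9 (21.2 CPM per kb), followed by Hoxc6 (16.0), Hoxc8 (12.4) and Hoxd8 (8.85), all of which pattern the chest and trunk. Hoxa5, a gene of the neck and upper chest, led the Hoxa cluster with 5.77 CPM per kb. The first 3 kept their places when only exon bases free of overlap were counted, but Hoxb3 (10.8) and Hoxb2 (8.99) then stood above Hoxd8, and Hoxa7 (6.49) and Hoxa11 (5.84) above Hoxa5. The order also differed between groups that this mean pools. In wild type of run 1, Hoxb9 (27.3), Hoxc6 (20.5) and Hoxc8 (15.2) were followed by Hoxb8 (9.45), with Hoxd8 at 7.56 and, in Hoxa, Hoxa7 (4.72), Hoxa10 (4.40) and Hoxa11 (4.04) above Hoxa5 (3.91) per kb of exon. In wild type of run 2, Hoxd8 (14.5) was second to Hoxb9 (18.3). At the other end, Hoxb1, a hindbrain gene, had 0 or 1 count in every library, and Hoxb13, the most posterior gene of its cluster, had 0 to 4 counts in run 1 and 7 to 18 in run 2.

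In wild type of run 1, the Hoxb and Hoxc clusters held 41.7% ± 0.745 and 34.3% ± 0.602 (SD, n = 3) of the summed Hox CPM per kb, and Hoxa and Hoxd held 14.7% ± 0.737 and 9.32% ± 0.407. By paralog number, groups 4 to 8 held 55.8% ± 0.526, groups 9 to 13 held 35.4% ± 0.565 and groups 1 to 3 held 8.81% ± 0.484. The share of groups 9 to 13 was 19.9% ± 0.875 in GRko/ko, 24.8% ± 0.540 in GRD+L/D+L and 34.5% ± 0.639 in GRD/D, and in run 2 it was 45.8% ± 0.981 in wild type and 49.6% ± 0.353 in GRL/L. The share of posterior genes was thus lowest without the receptor and highest in run 2. Within a group the libraries lay close together: over members with at least 15 counts, the median coefficient of variation was 5.97% to 12.4%, and the variance was 1.06 to 2.17 times what counting alone gives. The tests below measure this spread between libraries, and whether it is also the spread between embryos was not tested.

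**Figure D1:**
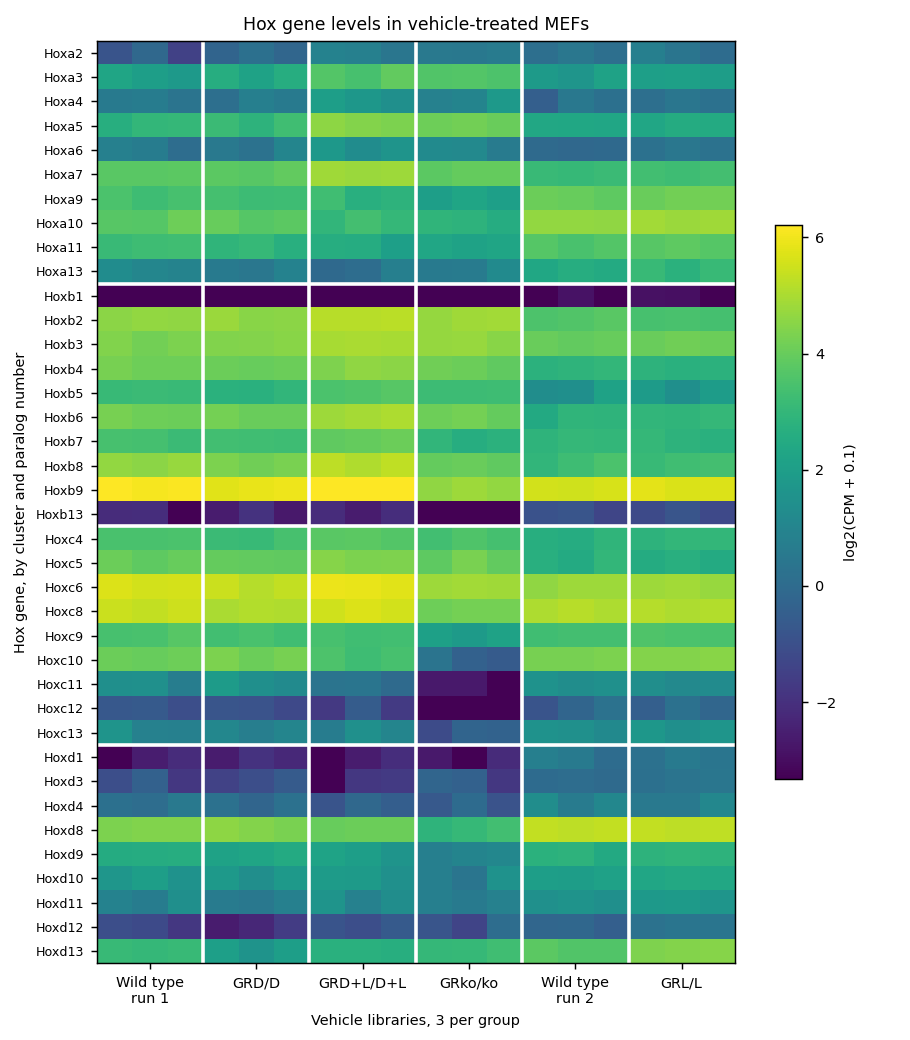
Levels of 38 Hox genes in the 18 vehicle libraries as log2(CPM + 0.1), in rows by cluster and paralog number, with 3 columns per group. Hoxc10 to Hoxc12 are dark in the 3 GRko/ko libraries, Hoxa2 to Hoxa7 are brighter in GRD+L/D+L than in wild type of run 1, and Hoxd1 is dark in run 1 and lighter in the 6 libraries of run 2.

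Cells without the receptor had less RNA of the posterior Hox genes and more of some anterior Hoxa genes. In GRko/ko against wild type with vehicle, 18 of the 37 tested members were lower and 5 were higher (adjusted p at most 0.05, edgeR quasi-likelihood test, Benjamini-Hochberg over all genes; 22.6% of all genes tested were lower and 25.8% higher). With a log2 fold change of at least 1 as well, 12 were lower and 3 higher, against 4.65% and 9.99% of all genes. The higher members were thus a smaller share than among all genes by adjusted p, and near that share with the limit on the fold change. In paralog groups 9 to 13, 11 of the 15 tested members were lower, and the 5 that were higher all lie in groups 2 to 5. The median log2 fold change was -0.42 over the 37 members and 0.02 over all genes tested.

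Hoxc10, which acts in the lumbar region and hindlimb, had the smallest p. It had 255, 229 and 263 counts in the vehicle libraries of wild type in run 1 and 20, 12 and 9 in those of GRko/ko. The groups were far apart, and wild type was 20.2-fold higher by summed counts (95% counting interval 14.8 to 28.4). The next genes of the cluster are described beside it, a choice made after their values were seen. Hoxc11 had 40, 39 and 24 counts in wild type and 1, 1 and 0 in GRko/ko, a ratio of 57.2 (15.4 to 479.0). Hoxc12 had 8, 8 and 6 counts in wild type and 0, 0 and 0 in GRko/ko, so that wild type was at least 8.15-fold higher, with 3 counts over the group as the floor. Hoxc13, the last gene of the cluster, was at 2.92, 1.71 and 1.69 CPM in wild type and at 0.353, 0.736 and 0.695 CPM in GRko/ko, a smaller difference (-1.76 ± 0.266 SE on the log2 scale, adjusted p = 8.64e-07, edgeR). The intervals and the floor cover counting error only.

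Hoxb9 was at 73.2, 66.8 and 70.6 CPM in wild type of run 1 and at 24.3, 28.0 and 25.2 CPM in GRko/ko, with no overlap (log2 fold change -1.51 ± 0.0719 SE, adjusted p = 1.44e-19, edgeR). Hoxc8 was at 43.4, 40.5 and 45.1 CPM against 17.2, 18.6 and 18.7 CPM (-1.31). Hoxc9 was at 10.6, 11.0 and 13.2 CPM against 4.17, 3.51 and 4.42 CPM (-1.51). For Hoxc6, next to Hoxc8 on the anterior side, the difference was smaller, with 52.1, 47.4 and 48.2 CPM against 27.7, 29.6 and 28.7 CPM (-0.79). Hoxc4 and Hoxc5 further towards the anterior end did not pass the test (0.02 and -0.0002), so that the difference in Hoxc grew from Hoxc6 to Hoxc10.

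In Hoxd, Hoxd8 was at 20.1, 21.1 and 21.01 CPM in wild type of run 1 against 7.23, 8.21 and 9.85 CPM in GRko/ko (-1.42 ± 0.117, adjusted p = 8.50e-13, edgeR). Hoxd9 was at 5.71, 5.82 and 5.96 CPM against 1.65, 1.87 and 2.02 CPM (-1.66). This cluster did not follow the order of Hoxc to its end: Hoxd13, a gene of the digits, stood at 8.36, 8.01 and 8.36 CPM against 7.93, 8.33 and 9.73 CPM (0.11 ± 0.0985, adjusted p = 0.377, edgeR), with overlapping libraries. In Hoxa, Hoxa10, which acts in the lumbar region and the uterus, was at 13.3, 12.8 and 17.1 CPM against 7.46, 7.14 and 5.94 CPM. Hoxa9, Hoxa10 and Hoxa11 were lower (-1.21, -1.07 and -0.89).

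Of the members that were higher in GRko/ko, Hoxa3, which patterns the throat and neck, was at 12.2, 12.5 and 11.4 CPM against 4.73, 3.90 and 3.50 CPM in wild type of run 1 (log2 fold change 1.62 ± 0.136, adjusted p = 1.38e-12, edgeR). Hoxa5 was at 16.9, 17.9 and 16.2 CPM against 6.22, 7.74 and 8.04 CPM (1.19 ± 0.101, adjusted p = 1.90e-12, edgeR). Both were clear of every wild-type library of either run. Hoxa2, Hoxa4 and Hoxb3 were the others (1.47, 0.70 and 0.29).

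Markers of other cells moved with the same genotype. All 10 macrophage markers were higher in GRko/ko, with a sum of 2941 to 3280 CPM against 194.2 to 341.4 CPM in wild type of run 1, and none was at 0 in either group. All 6 tested cartilage markers were higher, with a sum over 8 genes of 180.5 to 561.9 CPM against 19.58 to 21.07 CPM. Skeletal muscle markers were higher in 5 and lower in 1 of 6 tested, while their sum was 412.6 to 458.8 CPM against 675.6 to 780.5 CPM. Fibroblast markers were higher in 4 and lower in 5 of 10, endothelial markers higher in 1 of 4, epithelial markers higher in 2 of 4, and neural markers higher in 2 and lower in 1 of 5. Xist, the RNA of the inactive X chromosome, was at 229.0 to 278.7 CPM in wild type of run 1 and at 1.39 to 1.82 CPM in GRko/ko, so sex differed between these groups as well. The part of these differences in the Hox result was not tested.

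**Figure D2:**
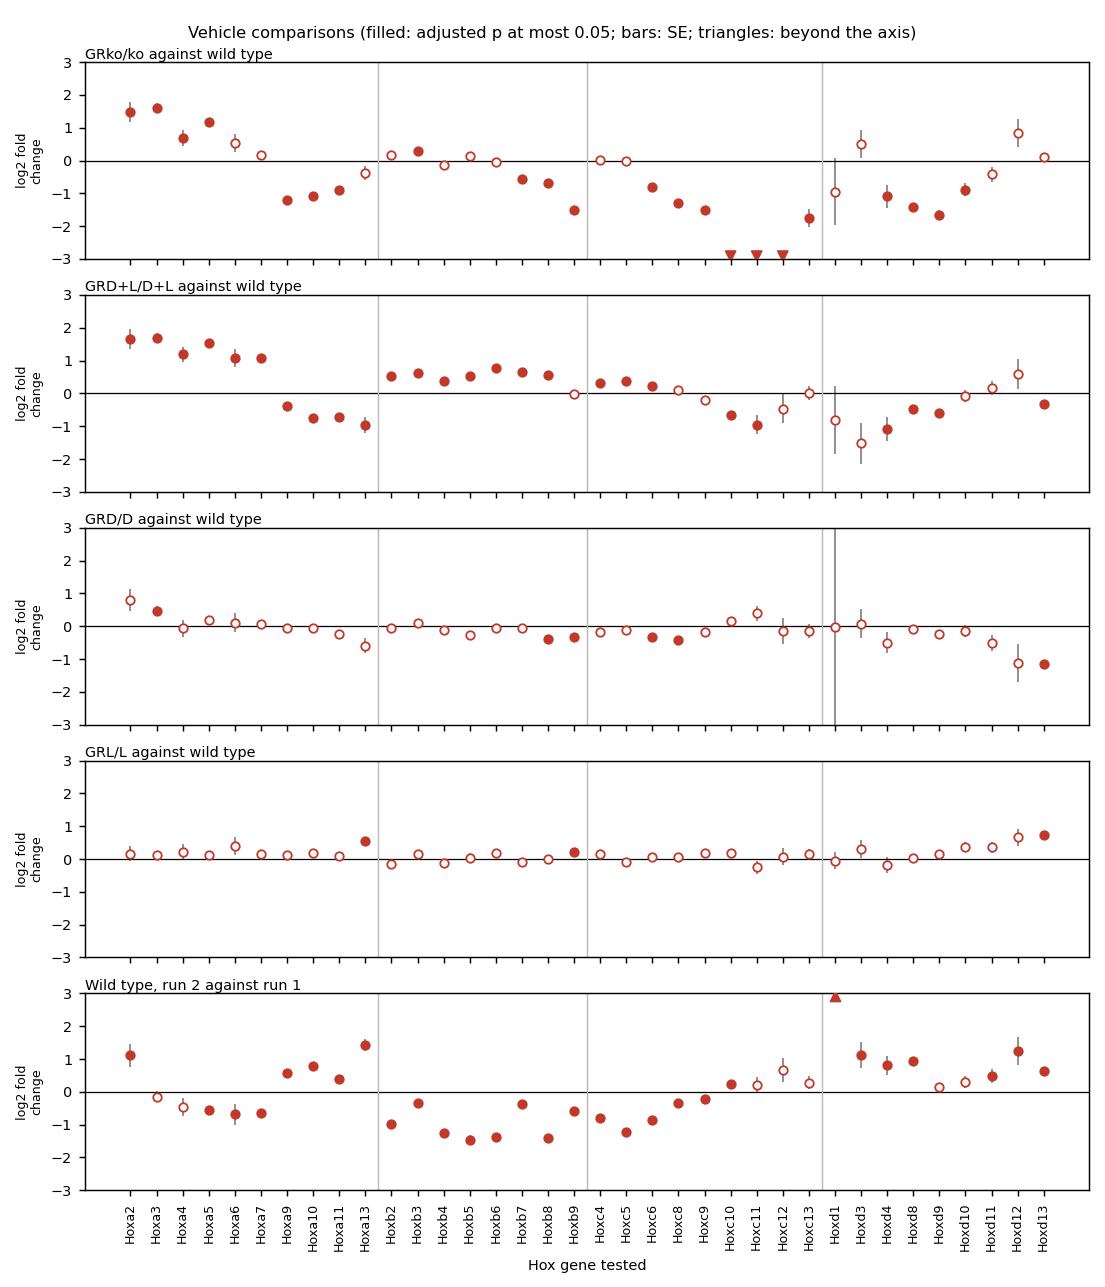
Log2 fold change with vehicle of 36 tested Hox genes, for each mutant against wild type and for wild type of run 2 against run 1. Points are the fitted values, bars 1 SE (a bar that reaches the frame goes on past it), filled points have an adjusted p at most 0.05, triangles lie beyond the axis and vertical lines part the clusters; in GRko/ko and GRD+L/D+L, Hoxa2 to Hoxa7 lie above 0 and Hoxa9 to Hoxa13 below 0.

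The double mutant GRD+L/D+L had more RNA of the anterior and central Hoxa and Hoxb genes. Of the 37 tested members, 16 were higher and 11 lower than in wild type by adjusted p (15.4% and 18.0% of all genes tested were higher and lower). With the limit on the fold change, 6 were higher and 1 was lower, against 2.64% and 3.27% of all genes. The 6 were Hoxa2 to Hoxa7, a run of neighbours. In paralog groups 4 to 8, 12 of 15 tested members were higher and 2 lower, and in groups 9 to 13, 8 of 15 were lower.

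Hoxa3 was at 12.7, 10.7 and 15.1 CPM in GRD+L/D+L against 4.73, 3.90 and 3.50 CPM in wild type of run 1 (log2 fold change 1.70 ± 0.136, adjusted p = 2.31e-12, edgeR). Hoxa5 was at 23.9, 21.3 and 19.9 CPM against 6.22, 7.74 and 8.04 CPM (1.54 ± 0.0989, adjusted p = 1.13e-14, edgeR). Hoxa7, a trunk gene, was at 28.8, 27.5 and 28.1 CPM against 13.5, 13.4 and 13.8 CPM (1.09 ± 0.0716, adjusted p = 1.93e-14, edgeR). For these genes no wild-type library reached the double mutant. The low genes between them showed the same direction. Hoxa2 was at 1.77, 1.66 and 1.22 CPM against 0.454, 0.822 and 0.259 CPM (1.65). Hoxa4 was at 4.001, 3.20 and 2.58 CPM against 1.43, 1.51 and 1.17 CPM (1.19), and Hoxa6 at 3.28, 2.36 and 2.92 CPM against 1.69, 1.51 and 0.973 CPM (1.08). From Hoxa9 on the direction turned, and Hoxa9, Hoxa10, Hoxa11 and Hoxa13 were lower (-0.38, -0.75, -0.72 and -0.97).

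In Hoxb, 7 of 8 tested members were higher in GRD+L/D+L, by 0.37 (Hoxb4) to 0.78 (Hoxb6) on the log2 scale. The exception was Hoxb9, at 73.0, 72.0 and 73.8 CPM beside 73.2, 66.8 and 70.6 CPM in wild type (-0.01, adjusted p = 0.896, edgeR). The member called as lower was Hoxd4, with 7, 13 and 9 counts against 16, 14 and 21 (-1.09 ± 0.363, adjusted p = 0.019, edgeR). Against wild type of run 1 alone its value was -0.81 (adjusted p = 0.107, edgeR), and without vehicle replicate 1 or 3 of GRD+L/D+L the adjusted p was 0.0962 or 0.0571. Macrophage markers went the other way from GRko/ko: all 10 were lower in GRD+L/D+L, at a sum of 33.59 to 42.7 CPM, and none was at 0. Fibroblast markers were lower in 7 of 10, at a sum of 21240 to 21660 CPM against 28550 to 30560 CPM. Neural markers were higher in 2 and lower in 1 of 5 (842.3 to 888.0 CPM against 415.7 to 449.5 CPM), cartilage markers higher in 2 and lower in 1 of 6, and 1 skeletal muscle and 1 endothelial marker were higher. Xist was at 0.0639 to 0.590 CPM in GRD+L/D+L. The part of these differences was not tested.

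The single mutants differed from wild type with vehicle in few members. In GRD/D, 5 of the 37 tested members were lower and 1 was higher (5.37% and 7.27% of all genes tested), and Hoxd13 was lower by at least 1 on the log2 scale (0.73% of all genes). Hoxd13 was at 4.02, 2.91 and 3.91 CPM in GRD/D and at 8.36, 8.01 and 8.36 CPM in wild type of run 1 (log2 fold change -1.16 ± 0.117, adjusted p = 2.69e-09, edgeR). Its neighbour Hoxd12 had 1, 2 and 4 counts against 6, 5 and 3, with overlap (-1.13, adjusted p = 0.224, edgeR). The other 4 that were lower, Hoxb8, Hoxb9, Hoxc6 and Hoxc8, had log2 fold changes of -0.43 to -0.33, and Hoxa3 was higher (0.47). Against wild type of run 1 alone Hoxa3 was at 0.43 and did not pass (adjusted p = 0.104, edgeR). Xist stood at 164.9 to 305.1 CPM in GRD/D. All 10 macrophage markers were higher, at a sum of 699.9 to 770.0 CPM. Endothelial markers were lower in 2 of 4 (6.70 to 7.83 CPM against 9.40 to 12.06 CPM), 1 neural marker was lower, and 1 cartilage, 1 skeletal muscle and 1 fibroblast marker were higher. The part of these differences was not tested.

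In GRL/L, 3 members were higher (7.56% of all genes tested), with 11 (29.7%) at an unadjusted p under 0.05 against 24.9% of all genes tested. None passed the limit on the fold change in edgeR or in DESeq2. The 3 were Hoxd13, Hoxa13 and Hoxb9. Against wild type of run 2 alone Hoxb9 was at 0.16 and did not pass (adjusted p = 0.0742, edgeR). Hoxd13 was at 20.7, 21.8 and 22.2 CPM against 14.0, 12.2 and 12.1 CPM in wild type of run 2 (0.73 ± 0.0750, adjusted p = 1.02e-08, edgeR). Hoxa13, its paralog, was at 8.38, 6.70 and 8.54 CPM against 5.00, 5.98 and 5.60 CPM (0.55 ± 0.127, adjusted p = 0.0026, edgeR). Hoxd13 was thus lower in GRD/D and higher in GRL/L, and in both its libraries were clear of wild type of the same run. In GRL/L too all 10 macrophage markers were higher, at 860.2 to 1024 CPM against 483.1 to 511.5 CPM. Cartilage markers were higher in 3 of 6 (112.5 to 114.9 CPM against 66.8 to 81.16 CPM), epithelial markers lower in 3 of 4 (1.61 to 2.24 CPM against 4.09 to 49.09 CPM) and skeletal muscle markers lower in 2 of 6. Fibroblast and endothelial markers were higher in 1 and lower in 1 each, and 1 neural marker was lower. The part of these differences was not tested.

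Wild type itself differed between the runs. With vehicle, 13 members were higher in run 2 and 17 lower (40.2% and 32.2% of all genes tested), and 5 were higher and 5 lower by at least 1 on the log2 scale (12.7% and 10.2%). Many genes of any kind differed between the runs. All 8 tested Hoxb members were lower in run 2, and 7 of 9 Hoxd members were higher. Hoxa was split, with 5 higher and 4 lower, and Hoxc had 1 higher and 5 lower. By paralog number, groups 4 to 8 had 2 higher and 12 lower, and groups 9 to 13 had 8 higher and 2 lower. Groups 1 to 3 had 3 higher and 3 lower. The direction thus differed by cluster and by paralog number, and these 2 divisions share members. Hoxb8 was at 7.58, 9.33 and 11.3 CPM in run 2 and at 24.9, 23.3 and 26.5 CPM in run 1 (-1.41 ± 0.0979, adjusted p = 3.39e-15, edgeR). Hoxb4 was at 6.94, 7.25 and 7.87 CPM and 18.9, 17.1 and 16.9 CPM (-1.26). Hoxb5 was at 2.47, 2.59 and 4.38 CPM and 8.49, 8.83 and 8.69 CPM (-1.47). These genes of the neck and chest were lower in run 2 with no overlap, as were Hoxb6 at 5.46, 7.51 and 7.31 and 19.1, 17.0 and 16.8 CPM (-1.39) and Hoxc5 at 6.34, 5.61 and 7.87 and 16.7, 14.3 and 15.8 CPM (-1.24).

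Hoxa13, a gene of the limb tip, was at 5.00, 5.98 and 5.60 CPM in run 2 and at 2.40, 1.99 and 1.82 CPM in run 1 (1.42 ± 0.182, adjusted p = 1.37e-08, edgeR). Hoxa2 was at 1.02, 1.28 and 1.00 CPM and 0.454, 0.822 and 0.259 CPM (1.11). Hoxd8 was at 40.6, 37.9 and 40.7 CPM in run 2 and 20.1, 21.1 and 21.01 CPM in run 1 (0.94). Hoxd1 differed most. It had 0, 1 and 2 counts in run 1 and 46, 38 and 25 in run 2, a ratio of 20.0 (95% counting interval 6.65 to 98.3). It had at most 3 counts in each of the 24 libraries of run 1, whatever the genotype, and 32, 44 and 36 counts in vehicle-treated GRL/L of run 2.

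Run and the embryos in it cannot be told apart. Wild type of run 2 had Xist at 0.0 to 0.0365 CPM and Ddx3y, a gene of the Y chromosome, at 124.5 to 140.5 CPM, against 0.0648 to 0.130 CPM of Ddx3y in run 1, so sex differed between the runs. The summed skeletal muscle markers stood at 29.12 to 30.28 CPM in run 2 and 675.6 to 780.5 CPM in run 1, with 4 of 6 tested higher and 2 lower in run 2. All 6 tested cartilage markers and 8 of 10 macrophage markers were higher in run 2. Neural markers were higher in 1 and lower in 4 of 5, epithelial markers higher in 3 and lower in 1 of 4, endothelial markers higher in 1 and lower in 2 of 4, and fibroblast markers higher in 6 and lower in 3 of 10. Of the 27 tested regulators of limb and body position, 11 were higher and 10 lower in run 2, with 5 and 3 past the limit on the fold change. Their median log2 fold change was -0.0052, so the list had no common direction. Among the higher ones, Tbx4, which specifies the hindlimb, was at 7.64 to 9.11 CPM against 1.75 to 2.33 CPM. Msx1, a gene of the growing limb and also among the higher ones, was at 12.44 to 13.85 CPM against 1.10 to 2.72 CPM. Both named genes are from the higher side and do not stand for the list, in which 10 of 27 were lower. The part of these differences was not tested.

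Dex lowered Hox RNA in wild type. The summed CPM of the 39 genes was 466, 444 and 464 in the vehicle libraries of run 1 and 378, 377 and 366 in the Dex libraries. In run 2 it was 367, 369 and 381 with vehicle and 313, 287 and 285 with Dex. No Dex library reached the lowest vehicle library of its run, and the means differed by -18.4% and -20.6%. The change was largest in Hoxb (-23.8% in run 1 and -30.4% in run 2) and Hoxc (-21.1% and -24.7%). In Hoxa it was -8.35% and -4.97%, and in Hoxd -1.10% and -17.4%. These sums are a description and carry no test.

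**Figure D3:**
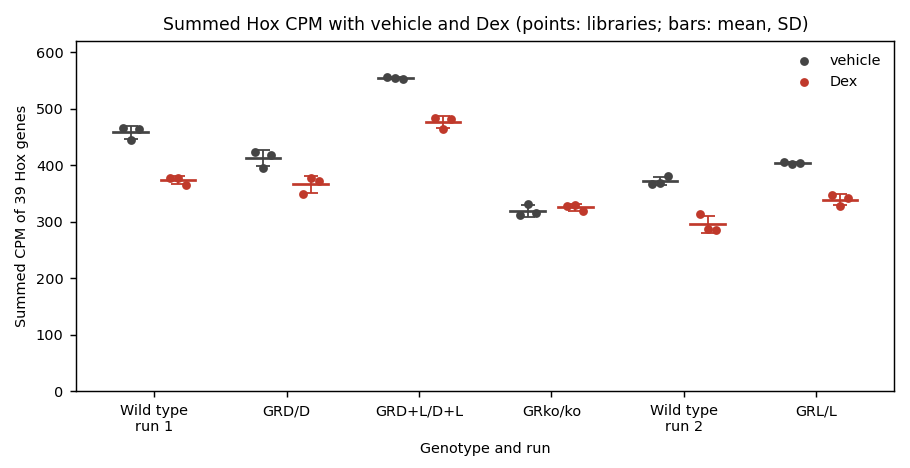
Summed CPM of the 39 Hox genes in each library (points), with the mean and SD of 3 libraries (bars), for vehicle and Dex in each genotype and run. The Dex points lie below the vehicle points in every group but GRko/ko.

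By gene, 18 of the 37 tested members fell with Dex in wild type and 1 rose (17.4% and 16.2% of all genes tested fell and rose). The changes were small, and 1 of the 18 fell by at least 1 on the log2 scale (1.36% of all genes tested). The median log2 fold change was -0.25 over the members and -0.01 over all genes tested. In Hoxb 7 of 8 tested members fell, in Hoxc 6 of 9, in Hoxd 3 of 9 and in Hoxa 2 of 11. Within each run taken alone, 11 members fell in run 1 and 13 in run 2 (6.2% and 16.7% of all genes tested). In Hoxd 0 of 9 fell in run 1 alone and 3 in run 2, and in Hoxa 1 and 0 of 11. Of the 10 macrophage markers, 2 rose and 2 fell with Dex in wild type. Among fibroblast markers 3 rose and 1 fell, among epithelial markers 3 of 4 fell, among neural markers 2 of 5 fell, and of the skeletal muscle and endothelial markers 1 rose and 1 fell each. Their part in the Hox result was not tested.

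Hoxb2, a gene of the hindbrain and neck, had the smallest p. It was at 23.3, 25.3 and 24.8 CPM with vehicle and 17.6, 17.5 and 15.4 CPM with Dex in run 1. In run 2 it was at 11.6, 12.1 and 13.5 CPM and 7.76, 7.37 and 7.59 CPM. It fell by 0.62 on the log2 scale (± 0.0590 SE, adjusted p = 9.39e-11, edgeR). Vehicle and Dex libraries were clear of each other in both runs, although the vehicle level differed between them. Hoxb3 fell by 0.55 and Hoxb8 by 0.56.

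The most abundant members fell too. Hoxb9 was at 73.2, 66.8 and 70.6 CPM with vehicle and 54.8, 55.2 and 55.2 CPM with Dex in run 1. In run 2 it was at 46.8, 45.8 and 48.8 CPM and 32.5, 29.4 and 29.6 CPM. It fell by 0.49 (± 0.0496, adjusted p = 4.02e-10, edgeR). Hoxc6 was at 52.1, 47.4 and 48.2 and 36.9, 35.7 and 36.7 CPM in run 1 and fell by 0.46, and Hoxc8 fell by 0.44, both with no overlap in either run. Hoxb4, Hoxb5, Hoxb6, Hoxc5 and Hoxc10 fell by 0.28 to 0.57, and Hoxa3, Hoxa9, Hoxc4, Hoxc9, Hoxd4 and Hoxd8 by 0.18 to 0.62. The fall of Hoxd4 rests on run 2, with 69, 40 and 54 counts with vehicle and 25, 29 and 25 with Dex. In run 1 it had 16, 14 and 21 counts with vehicle and 25, 12 and 16 with Dex, with overlap. Hoxb7, between Hoxb6 and Hoxb8, was the tested Hoxb member that did not pass (-0.02 ± 0.0748, adjusted p = 0.869, edgeR).

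Of the other cluster leaders, Hoxd8 had 20.1, 21.1 and 21.01 CPM with vehicle and 20.5, 23.4 and 19.5 CPM with Dex in run 1, with overlap. In run 2 it had 40.6, 37.9 and 40.7 CPM and 35.7, 28.0 and 28.4 CPM, with none. Its fall of 0.21 over both runs (adjusted p = 0.0191, edgeR) therefore rests on run 2, and the value in run 1 alone was 0.03. Hoxa5 was at 6.22, 7.74 and 8.04 CPM with vehicle and 5.79, 7.84 and 6.81 CPM with Dex in run 1 and did not pass (-0.17, adjusted p = 0.135, edgeR).

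Hoxd1 was the member past the limit on the fold change, and its value also rests on run 2. There it had 46, 38 and 25 counts with vehicle and 9, 5 and 13 with Dex, a ratio of 3.82 (95% counting interval 2.48 to 6.05). In run 1 it had 0, 1 and 2 and 1, 0 and 3 counts. The fitted log2 fold change was -1.71 ± 0.338 (adjusted p = 1.14e-04, edgeR). In GRL/L it had 32, 44 and 36 counts with vehicle and 13, 8 and 16 with Dex, a ratio of 2.6 (1.78 to 3.88).

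**Figure D4:**
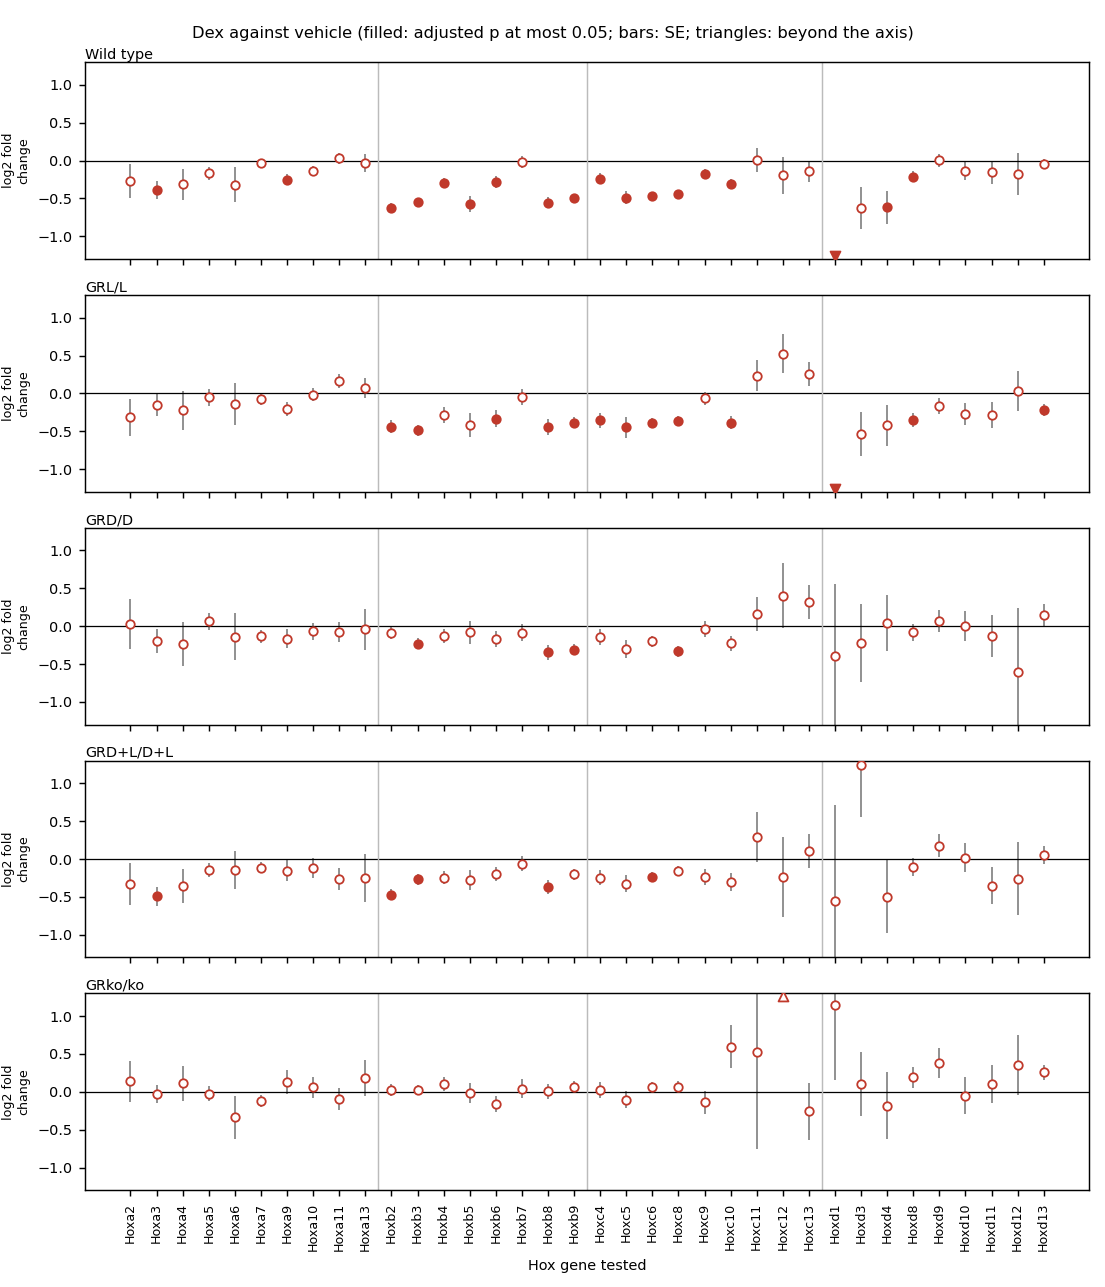
Log2 fold change with Dex of 36 tested Hox genes in each genotype. Points are the fitted values, bars 1 SE (a bar that reaches the frame goes on past it), filled points have an adjusted p at most 0.05, triangles lie beyond the axis and vertical lines part the clusters; filled points below 0 number 18 in wild type, 13 in GRL/L, 4 in GRD/D, 5 in GRD+L/D+L and 0 in GRko/ko.

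The mutants with a receptor showed falls in some of the same members. In GRL/L 13 members fell with Dex (9.57% of all genes tested fell), 1 of them by at least 1 on the log2 scale (Hoxd1, -1.37; 1.04% of all genes). Hoxb3 had the smallest p there, with 16.3, 17.7 and 16.7 CPM with vehicle and 13.4, 11.3 and 11.5 CPM with Dex (-0.49 ± 0.0714, adjusted p = 2.65e-06, edgeR). In GRD/D 4 members fell (5.34% of all genes tested fell), namely Hoxc8, Hoxb9, Hoxb8 and Hoxb3. Hoxc8 was at 32.1, 34.1 and 33.9 CPM with vehicle and 26.1, 27.7 and 25.7 CPM with Dex (-0.33 ± 0.0713, adjusted p = 0.00135, edgeR). In GRD+L/D+L 5 fell (1.45% of all genes tested fell), namely Hoxb2, Hoxb8, Hoxb3, Hoxa3 and Hoxc6. Hoxb2 was at 35.9, 36.2 and 37.4 CPM with vehicle and 26.7, 25.3 and 26.9 CPM with Dex (-0.47 ± 0.0746, adjusted p = 3.82e-05, edgeR). Hoxb3 and Hoxb8 were on the list of every genotype with a receptor in edgeR. In GRD/D Hoxb3 was near the threshold (-0.23, adjusted p = 0.0417, edgeR) and did not pass in DESeq2 (adjusted p = 0.0544) or with a replicate block by culture (adjusted p = 0.0755, edgeR). The count in GRD/D was 2 without Dex replicate 1, 2 or 3 or vehicle replicate 3. In GRD+L/D+L it was 1 without Dex replicate 2, 2 without vehicle replicate 1 or 3, and 3 without Dex replicate 3 or vehicle replicate 2.

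In GRko/ko 0 of the 37 members changed with Dex by adjusted p in edgeR or in DESeq2 (0.0% of all genes tested were called in edgeR). An unadjusted p under 0.05 was found for 2 members (5.41%, against 5.08% of all genes tested). The smallest adjusted p was that of Hoxd13, at 7.93, 8.33 and 9.73 CPM with vehicle and 9.86, 10.2 and 10.9 CPM with Dex (0.26 ± 0.102, adjusted p = 0.889, edgeR). Hoxb2 was at 26.2, 28.4 and 29.6 CPM and 30.8, 27.9 and 27.0 CPM, with overlap. Vehicle libraries summed to 311, 330.5 and 315 CPM over the 39 genes, and Dex libraries to 327, 330.1 and 318 CPM.

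The Dex response itself was tested against that of wild type. It differed in 9 members in GRko/ko, 3 in GRD/D and 3 in GRD+L/D+L (adjusted p of the interaction, edgeR), each time with a response less negative than in wild type (7.19%, 3.01% and 3.9% of all genes tested differed in that direction). In GRL/L 0 of 37 differed in edgeR or DESeq2 (0.187% of all genes tested differed in that direction). At an unadjusted p under 0.05 there were 0 members, against 9.45% of all genes tested. In GRL/L against wild type of its own run, 4 had an unadjusted p under 0.05 and 0 passed after adjustment (smallest adjusted p = 0.169, edgeR). Of all 15489 genes tested, 286 passed after adjustment there. The 9 in GRko/ko were Hoxb2, Hoxb3, Hoxb4, Hoxb5, Hoxb8, Hoxb9, Hoxc6, Hoxc8 and Hoxc10. In GRko/ko itself the responses of these 9 lay between -0.01 (Hoxb5) and 0.60 (Hoxc10), and none passed the test. In GRD/D they were Hoxb2, Hoxb3 and Hoxc6, and in GRD+L/D+L Hoxb3, Hoxb9 and Hoxc8. These comparisons share the wild-type libraries. Against wild type of run 1 alone the counts in GRko/ko, GRD/D and GRD+L/D+L were 7, 1 and 0, and with a replicate block by culture that in GRD/D was 1. Between the wild types, the response of Hoxb9 and Hoxd8 was more negative in run 2 than in run 1 (3.89% of all genes tested). That count was 0 without Dex replicate 2 or vehicle replicate 2 of run 1, or without Dex replicate 5 or 6 or vehicle replicate 4 of run 2.

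Genes that work with Hox proteins or regulate the clusters were read beside them, and their counts are to be set against the share of all genes tested: 16.2% rose and 17.4% fell with Dex in wild type, 25.8% were higher and 22.6% lower in GRko/ko, and 15.4% were higher and 18.0% lower in GRD+L/D+L. Of the 9 TALE cofactors, homeodomain proteins that bind DNA together with Hox proteins, 2 rose and 3 fell with Dex in wild type, among them Pbx3 (-0.33, adjusted p = 2.76e-08, edgeR). In GRko/ko with vehicle 4 were higher and 2 lower, with Meis3 among the lower at -1.04, and in GRD+L/D+L 5 were higher. Of 22 genes in the Polycomb list, which also holds the demethylases Kdm6a and Kdm6b that act against Polycomb, 3 rose and 7 fell with Dex in wild type. Among those that fell, Suz12 was at -0.23 and Jarid2 at -0.37. The double mutant had 1 gene of this list higher and 7 lower, and in GRko/ko 3 and 4. Of 11 Trithorax and MLL genes, 2 rose with Dex in wild type, 4 were higher in GRko/ko and 1 was lower in GRD+L/D+L.

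Of the regulators of limb and body position, 4 of 27 rose and 9 fell with Dex in wild type (16.2% and 17.4% of all genes tested), and Hand2, which acts in the posterior limb, had the smallest p (1.15, adjusted p = 5.05e-19, edgeR). In GRko/ko with vehicle 6 were higher and 15 lower (25.8% and 22.6% of all genes). With the limit on the fold change, 3 were higher and 6 lower (9.99% and 4.65% of all genes). Among the lower ones, Prrx1, En1, Shox2 and Emx2 were at -0.72, -1.65, -1.34 and -1.39, and none of the higher ones is named here. The double mutant had 8 higher and 12 lower (15.4% and 18.0% of all genes). Head regulators, which act in front of the Hox domain, were higher in 4 and lower in 1 of 7 tested in GRko/ko, with Barx1 at 4.36. In GRD+L/D+L 3 were higher, and with Dex in wild type 2 rose.

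Noncoding RNAs of the clusters were low. Of the 16 counted, 8 were tested, and with Dex in wild type the smallest adjusted p among these was 0.137 (edgeR). In GRko/ko Hoxaas2 was higher (2.05) and Mir196a-1 and Hoxd3os1 were lower (-2.08 and -1.46). Hotair, between Hoxc11 and Hoxc12, had 1 to 4 counts in vehicle-treated wild type of run 1 and 0 in vehicle-treated GRko/ko. Of the 10 tested neighbours outside the clusters, 3 fell with Dex in wild type, and in GRko/ko 2 were higher and 3 lower, with Skap2, beside the Hoxa cluster, at 0.75. The 6 ParaHox genes, relatives outside the clusters, summed to at most 0.372 CPM in the vehicle libraries.

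The order of levels across the 12 group means was set beside that of 11755 other genes. Most like Hoxc6 were Commd7 and Hes1 (Spearman's rho 0.993) and Gpr149 (0.986). For Hoxb9 they were Mcoln1 (0.972), Asah2 and Gxylt1 (0.965), for Hoxa5 Arhgap22, Gnaq and Timp2 (0.986), and for Hoxd8 Clcn4, Zfp991 (0.986) and Chac2 (0.979). Among the members, Hoxc6 was most like Hoxb8 (0.972), Hoxb9 like Hoxc8 (0.923), Hoxa5 like Hoxb5 (0.965) and Hoxd8 like Hoxa9 (0.958), each in another cluster. The 12 points share run, genotype and treatment, so these values are a description.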

How the data were processed

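Per the submitters' processing notes and the methods of the study, TruSeq libraries were checked with FastQC, aligned to mm10 with HISAT2 (2.1.0) and counted per gene with featureCounts (2.0.0), and the authors used DESeq2 for their own tests. The deposited values are raw counts per gene, not normalized, for 36 libraries. The annotation release, and whether reads were counted by strand, are not given in the sources used here.

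The 5 genotypes and vehicle or Dex came from the labels, and the 2 runs from the paper's account of an experiment done in 2 parts. Wild-type libraries numbered 4 to 6 were taken as those of the part with GRL/L. This left 3 libraries in each of 12 groups. The paper states that the cultures of a genotype each came from a different mouse. Within each set of 3 vehicle libraries, Xist was either high in all or near absent in all. In GRD/D and in wild type of run 1 it was at 164.9 CPM or more, and in the other sets at 1.822 CPM or less. Whether the libraries of a set are separate embryos cannot be told from the counts. The adjusted p values measure the spread between libraries, which may not be that between embryos. Whether a replicate number marks the same culture with vehicle and with Dex is not given in the sources used here. Genes were kept by filterByExpr (edgeR 4.0.16, limma 3.58.1, R 4.3.3), which left 15489 genes holding 99.93% of the counts. Library sizes were scaled by TMM. The quasi-likelihood test was fitted to all 36 libraries with 10 groups of genotype and treatment plus run, and with 12 groups and no run term for wild type within or between runs. A member was called at an adjusted p of at most 0.05 (Benjamini-Hochberg over all genes tested) and a log2 fold change of at least 1, and counts by adjusted p alone are given beside it. Interactions used the adjusted p alone. CPM were computed from the counts, and CPM per kb used the exon length of each gene in GENCODE M21 (GRCm38), which also gave coordinates and overlaps and may not be the release the authors counted with. Counts were also simulated from the mean levels and depths of these libraries, with 200 genes changed and 14834 tested. By adjusted p alone, the Dex comparison of wild type recovered 69% of changes of 0.5 and 94% of changes of 1 on the log2 scale. The vehicle comparison of GRko/ko recovered 55% and 86%. The share of false calls was 3.55% and 2.08%. The simulation held no other differences between runs or genotypes. Its fixed dispersion (spread beyond counting) was above the 0.00319 fitted to the data, so these shares do not carry over exactly.

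The members and all gene lists (TALE cofactors, Polycomb, Trithorax and MLL, limb and body position, head regulators, cluster noncoding RNAs, neighbours, ParaHox and cell markers) were chosen with earlier results of these data known. Named with values in each library were the leader of each cluster by CPM per kb, the members called in a comparison (the 8 with the smallest adjusted p where more were called) and, where none was called with Dex, the member with the smallest adjusted p, with up to 4 genes of each list. Other members named beside these were chosen after their values were seen. Alternatives were DESeq2 (1.42.0), its size factors in edgeR, other filters, no limit on the fold change, fewer libraries in the fit, replicate blocks and leaving out each library. Counts by adjusted p alone, the fits to wild type of 1 run and the comparison of the Dex response between runs were added after the data were seen. A few genes that enter the counts are not reported here by name or drawn.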

Additional observations from a re-analysis of the deposited data

Results flagged for a closer look

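The response to Dex differed between genotypes or runs in 17 tests of single Hox genes, each by the interaction term in edgeR with Benjamini-Hochberg adjustment. Values are the log2 response of the mutant minus that of wild type, so that a positive value is a response less negative, or more positive, than in wild type. In GRko/ko they were 0.65 for Hoxb2, 0.57 for Hoxb3, 0.39 for Hoxb4, 0.56 for Hoxb5, 0.56 for Hoxb8 and 0.56 for Hoxb9. For Hoxc6 the value was 0.52, for Hoxc8 0.51 and for Hoxc10 0.91. The adjusted p of these 9 ran from 3.82e-06 for Hoxb2 to 0.0298 for Hoxc10, which has few counts in GRko/ko. In GRD/D the values were 0.53 for Hoxb2, 0.32 for Hoxb3 and 0.26 for Hoxc6, with adjusted p from 3.22e-04 to 0.0477. In GRD+L/D+L they were 0.29 for Hoxb3, 0.29 for Hoxb9 and 0.29 for Hoxc8, with adjusted p from 0.0195 to 0.0384. Between the wild types, run 2 minus run 1, the value was -0.28 for Hoxb9 and -0.40 for Hoxd8, with adjusted p of 0.0428 and 0.045.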

How the results depend on the processing

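DESeq2 and its size factors left every count of Hox genes within 1.5 times its value. With no limit on the fold change the counts were 19 instead of 1 for Dex in wild type, 13 instead of 1 in GRL/L, 4 instead of 0 in GRD/D and 5 instead of 0 in GRD+L/D+L, and with vehicle 23 instead of 15 in GRko/ko, 27 instead of 7 in GRD+L/D+L, 6 instead of 1 in GRD/D, 3 instead of 0 in GRL/L and 30 instead of 10 between runs. With at least 10 counts in every library, which removes low members, they were 0 for Dex in wild type and in GRL/L, 9 in GRko/ko, 4 in GRD+L/D+L and 6 between runs. In wild type of run 1 alone, Dex changed 0 members past the limit on the fold change and 11 instead of 19 by adjusted p, and the sign turned for Hoxd1 (0.29, adjusted p = 0.914, edgeR) and Hoxd8 (0.026, adjusted p = 0.915, edgeR). With only the genotypes compared, Dex in GRD/D gave 2 instead of 4, the interactions in GRD/D and GRD+L/D+L gave 1 instead of 3 each, and that between runs 0 instead of 2. With no filter on low counts, Dex in GRD+L/D+L gave 3 instead of 5, the interaction in GRD/D 1 instead of 3 and that between runs 1 instead of 2. Against wild type of the same run the interactions gave 1 in GRD/D and 0 in GRD+L/D+L. The cause of these shifts was not tested, save where fewer genes or libraries enter. Without division by length, in wild type of run 1, Hoxc held 33.1% instead of 34.3% of the summed Hox level, paralog groups 4 to 8 held 53.15% instead of 55.8% and groups 9 to 13 held 34.7% instead of 35.4%.

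Pairing by replicate number was not seen over the libraries as a whole: the deviations of same-numbered libraries correlated at -0.079 to 0.116. Of the 18, 7 correlated best with their own number, all in run 1. With 3 libraries in each set, these values cannot decide whether the numbers pair. With the replicate block by culture the interaction in GRD/D gave 1 instead of 3, and with the block by number within run 2, while Dex in wild type gave 18 by adjusted p and the vehicle comparison of GRko/ko 15. The blocks left the other counts within 1.5 times. No block could be fitted for GRL/L against wild type with vehicle or between runs, which share no numbers.

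With each library left out in turn, by the limit on the fold change, the counts with vehicle ran from 14 to 16 in GRko/ko, 6 to 9 in GRD+L/D+L, 1 to 2 in GRD/D (2 without vehicle replicate 2 of wild type in run 1), 0 to 0 in GRL/L and 7 to 12 between runs. By adjusted p alone they ran from 21 to 25, 23 to 27, 5 to 7, 2 to 3 and 26 to 29. For Dex by adjusted p they ran from 15 to 20 in wild type, 10 to 14 in GRL/L, 2 to 4 in GRD/D, 1 to 5 in GRD+L/D+L and 0 to 0 in GRko/ko. The interactions ran from 8 to 11 in GRko/ko, 1 to 4 in GRD/D, 0 to 3 in GRD+L/D+L, 0 to 0 in GRL/L and 0 to 2 between runs. In GRD/D the low value of 1 came without Dex replicate 2 or 3 or vehicle replicate 2. In GRD+L/D+L a count of 0 came without vehicle replicate 1 or 3, and 1 without Dex replicate 1 or 2, vehicle replicate 2, or Dex replicate 5 or 6 of wild type in run 2. Between runs a count of 1 came without Dex replicate 1 or 3 or vehicle replicate 1 or 3 of run 1, or vehicle replicate 6 of run 2. Members with few counts, such as Hoxc11, Hoxc12, Hoxd1 and Hoxd12, are limited by depth.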
